A study of Drosophila melanogaster with 3 samples.

Results

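The gustatory and ionotropic receptor genes of Drosophila melanogaster less often had a reproducible acj6-GFP binding region near them in white prepupae than protein-coding genes at large. They were taken as the protein-coding genes on the main chromosome arms whose symbols are Gr or Ir followed by a number and a single letter. This gave 120 genes, 60 of each family, of 13945 protein-coding genes. Of the 120, 15 (12.5%, exact Clopper-Pearson 95% interval 7.17% to 19.8%, counting error only) had a reproducible summit in the gene body or within 2 kb of it, against 38.5% of all protein-coding genes. A summit is the point of a region that the authors' caller gave as its peak, and a gene with one this close is called met. No reproducible summit lay inside the body of a receptor gene, and 10 of the 18 summits around these genes were nearer to the transcription start site (TSS) of a gene outside the families. The receptor gene itself held the nearest TSS in 42.1% of its pairs with a summit, against 57.9% over all genes, and counts this small leave a wide interval. Members were picked by symbol alone and by no measured value, but the families were chosen with earlier results of these data known.

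Gustatory receptors (Grs) are seven-transmembrane proteins of taste neurons that detect sugars, bitter compounds and, in the antenna, carbon dioxide. Ionotropic receptors (Irs) are a branch of the ionotropic glutamate receptor family that serves smell, taste and the sensing of temperature and humidity, and most work together with a broadly expressed co-receptor. Each taste or olfactory neuron expresses a small set of such genes. The transcription factor acj6 is a POU-homeodomain protein of class IV, known from the choice of odorant receptor genes and the wiring of olfactory neurons.

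Chromatin immunoprecipitation and sequencing (ChIP-seq) was made with an antibody against GFP on a single transgenic line that stably expresses acj6 fused at its C-terminus to GFP. There was 1 group of 3 biological replicates, each of whole white prepupae of both sexes, the stage at which the larva forms its puparium. Whether the replicates are separate cultures is not stated in the labels. Whole animals mix many tissues, taste and olfactory neurons are a small part of them, and the files hold no expression values by which the tissue could be checked. Every replicate came with 30000 listed regions, background included. The reproducible peaks, 8248 in number, are called the IDR list after the irreproducible discovery rate that selected them. Those 8248 had the same intervals and summits as the 8248 strongest regions of the list made from the pooled replicates. A replicate's strongest regions are therefore taken here as its 8248 with the highest deposited signal. Depth is unknown, since the files give no counts, and all lists share 1 control file.

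The low share repeated in each replicate. The strongest regions met 17, 15 and 16 receptor genes in replicates 1, 2 and 3 (14.2%, 12.5% and 13.3%), against 40.7%, 38.5% and 40.2% of all protein-coding genes. Over the 3 replicates this was 13.3% ± 0.833 of the receptor genes and 39.8% ± 1.15 of all genes (SD, n = 3 each). The SD is the spread between replicates over the same genes and does not hold the counting error of a share. In all 3 replicates 12 receptor genes were met, and each of these 12 had an IDR summit. No share over all genes was set beside this count. In the IDR list 8 of 60 Grs (13.3%) and 7 of 60 Irs (11.7%) were met, and over the replicates 15.6% ± 0.962 of Grs and 11.1% ± 2.55 of Irs (SD, n = 3 each). No test was made between the families or against all genes, because genes are not replicates of a condition.

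The share of receptor genes was below that of all genes at each distance tried. Within the gene body alone the count was 0 of 120 (upper end of the exact interval 3.03%, counting error only), against 14.7% of all genes. Within 1 kb of a TSS it was 2 genes (1.67%, interval 0.202% to 5.89%), against 24.4%. With 1 kb around the body it was 9 genes (7.5%), against 31.8%, and with 5 kb it was 41 (34.2%), against 53.3%. The receptor genes are compact, with a median length of 1799.5 bp against 2166 bp for all genes and a median of 89.6% of the body in coding sequence against 57.3%. Among genes of 1 to 3 kb, 15 of 102 receptor genes had a summit (14.7%, interval 8.47% to 23.1%), against 32.6% of the 5950 genes of that length. In that length class 0 of 102 receptor genes and 4.77% of all genes held a summit in the body, where coding sequence filled a median of 94.5% and 68.4%.

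**Figure D1:**
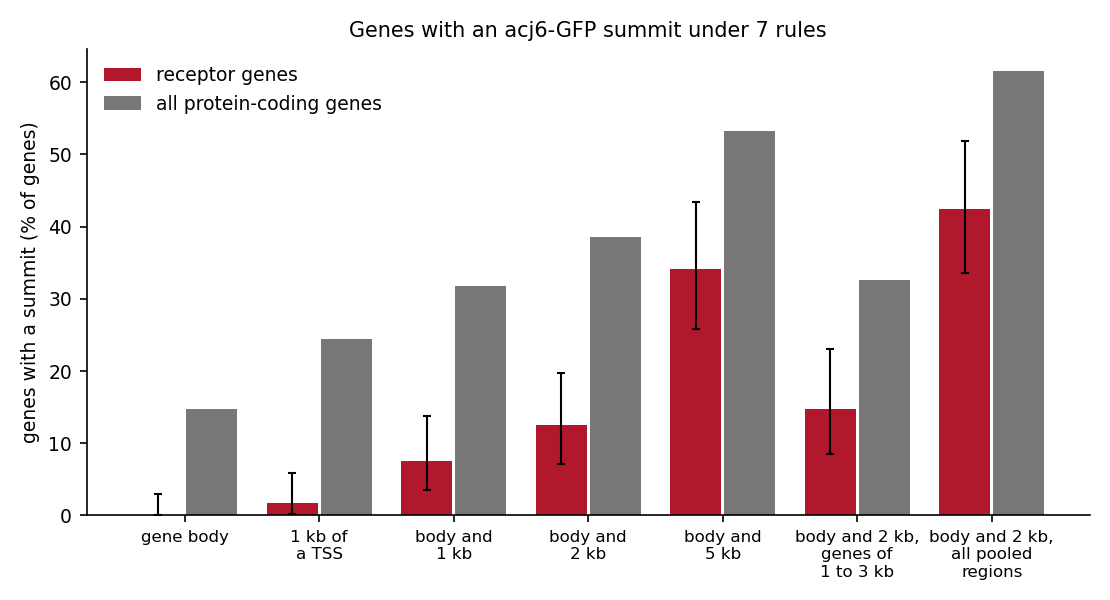
Percent of genes with a summit (y axis) under 7 rules (x axis) for the 120 receptor genes (102 in the class of 1 to 3 kb) and for all protein-coding genes of the same rule. Error bars are exact 95% binomial intervals of the receptor genes and cover counting error only. The receptor bars are lower than the bars of all genes under each of the 7 rules, from 0% against 14.7% in the gene body to 42.5% against 61.5% for all pooled regions.

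Receptor genes also lay farther from the summits when no window was set. The nearest IDR summit was a median of 10392.5 bp from a TSS of the gene for receptor genes (quartiles 4826 and 23473.5 bp), against 5741 bp for all genes (quartiles 1089 and 14389 bp). With the strongest regions of each replicate the medians averaged 10211.7 ± 1026.89 bp for receptor genes and 5390 ± 257 bp for all genes (SD, n = 3 each). Each distance is from the gene's closest annotated TSS, so genes with more starts have more chances of a short one, and the number of starts was not matched. In proportion the difference was largest close to the start. No receptor gene had an IDR summit within 0.1 kb of a TSS, against 5.48% of all genes, and 25.8% against 46.8% had one within 5 kb. The gap narrowed further out, at 85% against 94.9% within 50 kb. The nearest was Gr77a, at 262 bp, and the farthest Ir40a, a receptor of dry air, at 204644 bp.

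**Figure D2:**
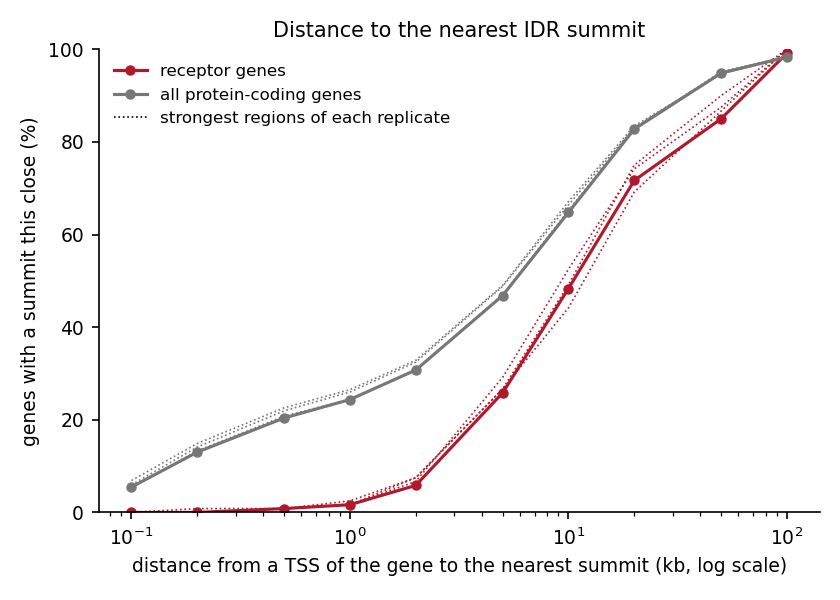
Cumulative percent of genes (y axis) with a summit within a given distance of one of their TSSs (x axis, kb, log scale), for receptor genes and all protein-coding genes. Solid lines are the IDR list and dotted lines the strongest regions of each replicate. The receptor line stays at 1.67% within 1 kb, where the line of all genes is at 24.4%, and the 2 lines approach each other beyond 10 kb, at 48.3% and 64.8%.

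Summits were sparse over the windows as a whole, which include the bodies without any. The merged windows of the receptor genes covered 0.711 Mb and held 18 IDR summits, or 25.3 per Mb (26.2 ± 0.812 over the replicates' strongest regions), against 67.5 per Mb in the windows of all genes (68.0 ± 0.565) (SD, n = 3 each). The main arms as a whole had 61.6 per Mb. The 60 Grs had 45.1 summits per Mb (48.9 ± 6.51) and the 60 Irs 13.5 (12.7 ± 3.43) (SD, n = 3 each). Ir41a alone spans 104437 bp, and without it the Irs had 17.8 per Mb. Outside the receptor gene bodies the windows had 53.1 summits per Mb, with 74.4 for Grs and 33.7 for Irs. The part outside any protein-coding body had 71.8 per Mb around receptor genes (75.4 ± 11.5 over the replicates), against 151 around all genes (156 ± 2.60) and 187 around genes of 1 to 3 kb (195 ± 3.73) (SD, n = 3 each). Of receptor genes with another within 5 kb, 6 of 62 were met (9.68%), and of those without, 9 of 58 (15.5%).

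Receptor genes with other genes close by were met about as rarely as those without. Where no other protein-coding gene had a TSS in the window, 5 of 45 receptor genes had an IDR summit (11.1%), against 25.3% of all genes. Where 1 or more did, it was 10 of 75 (13.3%), against 42.5%. From 0 to 3 or more such neighbours the share lay between 11.1% and 14.3% in receptor genes, while it was 25.3%, 36.6%, 44.8% and 49.9% in all genes. Other receptor genes count as neighbours here, and 62 receptor genes had one within 5 kb. The neighbours of receptor genes may thus differ in kind from those of all genes, which was not tested. Receptor genes stood alone more often, with no neighbour in 37.5% of them and in 23.1% of all genes. With 14 to 45 receptor genes per class, their shares cannot be told apart from one another.

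**Figure D3:**
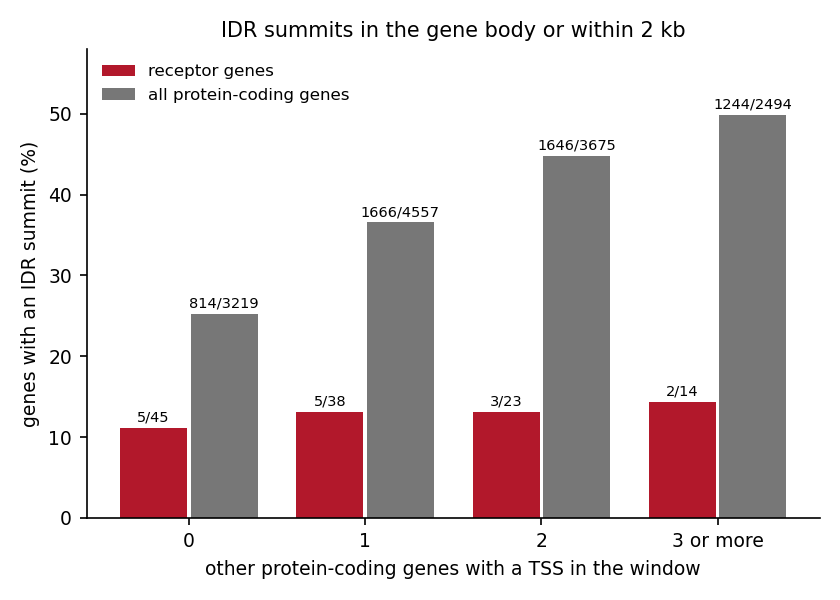
Percent of genes with an IDR summit in the gene body or within 2 kb (y axis) by the number of other protein-coding genes with a TSS in that window (x axis), for receptor genes and all protein-coding genes. Other receptor genes count as neighbours. Numbers above the bars are genes with a summit over genes in the class. The receptor bars lie between 11.1% and 14.3%, and those of all genes between 25.3% and 49.9%.

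The 15 receptor genes with an IDR summit were 8 Grs (Gr5a, Gr39b, Gr77a, Gr89a, Gr93a, Gr93b, Gr94a and Gr97a) and 7 Irs (Ir7g, Ir31a, Ir67b, Ir68b, Ir94e, Ir94g and Ir94h). They had 18 distinct summits, because Gr89a and Gr93a had 2 each, Gr97a had 3 and Ir94g and Ir94h shared 1. Of the 19 pairs of a gene and a summit, 7 summits lay upstream of the receptor gene, 12 downstream and 0 within it. By the annotation 13 summits lay outside protein-coding genes (intergenic) and 5 lay in introns of other genes, with none in a coding exon or a UTR. A single summit lay within 500 bp of a receptor gene's own TSS, that of Gr77a. Their signal had a median of 212 (101 to 389.7), against 182 for all IDR peaks, and 10 were among the 4124 strongest of 8248. None was near the top of the list: the 3 strongest ranked 1420, 1456 and 1927, and the next 2474. In 15 of the 18, each replicate had one of its strongest regions over 50% or more of the peak. The same held for 5820 of the 8248 peaks of the IDR list, and no test was made between these counts.

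**Figure D4:**
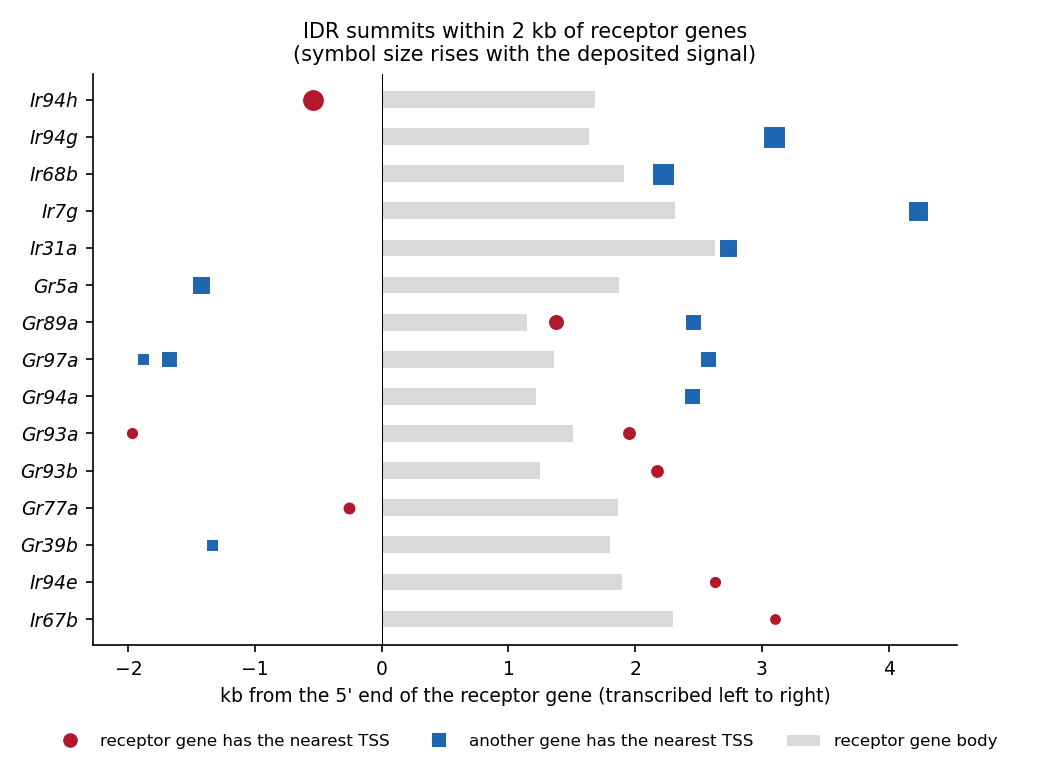
Positions of the IDR summits (x axis, kb from the 5′ end of the receptor gene, transcribed left to right) around the 15 receptor genes that had one (y axis). Grey bars are gene bodies, circles are summits to which the receptor gene holds the nearest TSS and squares those nearer to another gene's TSS. Symbol size rises with the deposited signal, and no symbol lies on a grey bar.

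Sequences of the 201 bases centred on a summit are shown for 5 of the stronger summits whose window touches no UTR, and for Gr77a, the summit nearest to a receptor gene's own start. The Gr77a window was added after its values were seen. They are the plus strand of the Release 6 genome (dm6), with the 11 bases around the deposited summit in capitals.
Ir94h, upstream (chr3R:23486861-23487061): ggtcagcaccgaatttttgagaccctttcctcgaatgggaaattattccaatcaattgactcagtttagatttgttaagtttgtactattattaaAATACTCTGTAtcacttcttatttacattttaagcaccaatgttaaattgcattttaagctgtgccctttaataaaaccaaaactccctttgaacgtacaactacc
Gr5a, in an intron of Tre1 (chrX:5679088-5679288): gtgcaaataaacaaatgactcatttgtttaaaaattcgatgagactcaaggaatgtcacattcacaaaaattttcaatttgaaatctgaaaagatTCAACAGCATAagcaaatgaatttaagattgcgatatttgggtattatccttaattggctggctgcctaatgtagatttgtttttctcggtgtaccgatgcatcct
Gr89a, summit nearer to Cad89D (chr3R:16496403-16496603): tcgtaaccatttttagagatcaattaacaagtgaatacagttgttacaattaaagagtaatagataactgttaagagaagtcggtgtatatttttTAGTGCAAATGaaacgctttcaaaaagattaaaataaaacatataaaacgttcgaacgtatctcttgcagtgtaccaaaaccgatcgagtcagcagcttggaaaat
Gr97a, in an intron of Tsp97E (chr3R:26963811-26964011): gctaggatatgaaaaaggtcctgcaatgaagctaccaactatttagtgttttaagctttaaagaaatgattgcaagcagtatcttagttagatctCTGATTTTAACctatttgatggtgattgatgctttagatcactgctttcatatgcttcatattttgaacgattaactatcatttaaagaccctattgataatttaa
Gr89a, summit nearer to Gr89a (chr3R:16497486-16497686): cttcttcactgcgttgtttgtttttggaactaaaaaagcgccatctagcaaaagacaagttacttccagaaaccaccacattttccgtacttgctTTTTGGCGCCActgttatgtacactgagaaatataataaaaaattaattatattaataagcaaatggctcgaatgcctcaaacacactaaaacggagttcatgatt
Gr77a, upstream (chr3L:20739592-20739792): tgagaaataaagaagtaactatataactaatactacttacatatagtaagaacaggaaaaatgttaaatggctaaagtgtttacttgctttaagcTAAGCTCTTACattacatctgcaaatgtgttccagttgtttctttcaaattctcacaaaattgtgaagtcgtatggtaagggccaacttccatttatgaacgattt
Bases A and T prevail in these windows. GC content of the 201 bases had a median of 32.6% over the 18 summits, and of 33.3% over all 8248 IDR summits. The windows 1 kb to the right of the same 18 summits had a median of 45.5%, and the bodies of the receptor genes 45.3%.

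Among the sugar receptors, 1 of 9 had an IDR summit, against 38.5% of all protein-coding genes. The role groups of receptor genes, here and below, hold 2 to 14 genes each. Their shares cannot be told apart from one another, and none was tested against all genes. Gr5a (FBgn0003747, dm6 chrX:5680617-5682488, plus strand) encodes the receptor for trehalose. Its summit at X:5679188, 1429 bp upstream, had a signal of 269 (rank 2491) and ranked 2304, 2714 and 2631 in replicates 1, 2 and 3, with signals of 87.5, 86.0 and 95.8. The ranks were close to one another, and no replicate lacked the region. The position is inside an intron of Tre1, a G protein-coupled receptor gene of germ cell migration on the opposite strand, and Tre1 held the nearest TSS, at 789 bp. Signals are not scaled between lists, so ranks rather than signals compare the replicates.

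The other sugar receptors were met by weak regions or by none. Gr64a had a pooled region of signal 61.6 (rank 12146) 1093 bp upstream, which lay in the 5′ UTR of CG11594, 335 bp from its TSS. Gr64b to Gr64f had a single region in the list of replicate 1 and none elsewhere, at rank 26303 for Gr64b and Gr64c and at rank 15714 for Gr64d, Gr64e and Gr64f. The Gr64 genes are neighbours, some with overlapping annotated bodies, so that 1 region can fall to several of them. Gr61a had no pooled region, and Gr43a, the fructose sensor of the brain, had no region in any list. The carbon dioxide receptors Gr21a and Gr63a, which act as a pair, had no IDR summit. Gr63a had 2 pooled regions, the better at rank 15938, with IDR summits 2582 bp upstream and 2652 bp downstream, nearest to Ccz1 and Fie.

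Of 5 bitter receptors that most bitter neurons share, only Gr89a (FBgn0038440, chr3R:16497817-16498959, minus strand) had IDR summits. Both lay downstream of it. The summit at 3R:16497586, 231 bp past the gene end, had a signal of 223 (rank 3219) and ranked 2603, 4486 and 3730 in replicates 1, 2 and 3. It was nearer to the TSS of Gr89a, at 1373 bp, than to that of any other protein-coding gene. The summit at 3R:16496503 had a signal of 229 (rank 3109), ranked 2929, 2640 and 4289, and was nearest to the cadherin gene Cad89D, at 1081 bp. Gr33a and Gr39a had pooled regions at ranks 23810 and 14299 and no IDR summit, and Gr66a had no pooled region.

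Gr32a, a bitter receptor that also restrains courtship between males, had a region in 1 replicate only. Replicate 3 had a summit 693 bp upstream (2L:11113321, signal 131, rank 1656), while the nearest region of replicate 1 was 6483 bp away, of replicate 2 6485 bp and of the pooled list 6490 bp. Idua, the alpha-L-iduronidase gene, held the nearest TSS, at 260 bp. Such regions were a small share of each replicate: 281, 172 and 277 of the 8248 strongest regions of replicates 1, 2 and 3 overlapped no pooled region by 1 bp, 29 of them among the 2000 strongest of replicate 3. Ir60e was the other receptor gene with one of a replicate's strongest regions and no pooled region. Its best regions ranked 6595 in replicate 1 and 9063 in replicate 3, beside CG13585, and the nearest region of replicate 2 was 5468 bp from the first.

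The remaining 6 Grs with an IDR summit fell into 2 kinds. At Gr77a and the Gr93 genes the receptor gene itself held the nearest TSS, and at Gr39b, Gr94a and Gr97a another gene did. Gr77a (FBgn0045474, chr3L:20737569-20739430, minus strand) had its summit 262 bp upstream, inside an intron of CG13252. The signal was 134 (rank 5835), and the region ranked 8723, 5632 and 5256 in replicates 1, 2 and 3, with signals of 29.6, 46.8 and 55.9. In replicate 1 the region therefore fell outside the 8248 strongest, so that the only IDR summit within 500 bp of a receptor gene's own start did not rank as high in every replicate.

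Gr97a (FBgn0041224, chr3R:26965124-26966485) had a summit of signal 229 (rank 3115) downstream, in an intron of the tetraspanin gene Tsp97E. It had a pair upstream of signals 202 and 123 (ranks 3660 and 6358), in an intron of CG5521. The upstream pair lies 1677 and 1883 bp from the gene. Replicates 1 and 3 had a region for each, at ranks 3274 and 9025 in replicate 1 and 2716 and 5288 in replicate 3, and replicate 2 had a single region between them, at rank 6509. The summit downstream of Gr94a (FBgn0041225, chr3R:23051689-23052903) lay in the antisense RNA gene asRNA:CR46089 and 54 bp upstream of the TSS of p53, whose body covers Gr94a on the opposite strand. It had a signal of 225 (rank 3161) and ranked 2716, 3837 and 3433 in the replicates. That of Gr39b (FBgn0041245, chr2L:21367908-21369706) had a signal of 129 (rank 6082), lay 181 bp from the TSS of CG8665 and ranked 5641, 7990 and 5800. Gr39b was also the only receptor gene with one of a replicate's strongest regions inside its body, at 2L:21368649 in replicate 2 (signal 33.6, rank 7814), and a pooled region there had a signal of 85.7 (rank 9005), below the lowest IDR signal of 94.2.

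The Gr93 cluster on 3R had summits between and around its genes, the strongest of them just outside the 2 kb window. Gr93a, a receptor needed for the response to caffeine, had IDR summits 1969 bp upstream (signal 112, rank 7036) and 440 bp downstream (163, rank 4669). Gr93b had 1 at 925 bp downstream (159, rank 4810). Of the 20 IDR summits anywhere whose nearest TSS is that of a Gr or Ir, 10 were nearest to a Gr93 gene, 5 to Gr93a, 4 to Gr93b and 1 to Gr93d. The regions with summits at 3R:21839701 and 3R:21839901 overlap, and the best region over each had the same rank in replicate 1 (2360) and in replicate 3 (2200). All 10 summits were intergenic, between 3R:21827678 and 3R:21849154. The strongest, with a signal of 786 (rank 356), lay 2495 bp upstream of Gr93d, just outside the window, and ranked 425, 448 and 265 in replicates 1, 2 and 3. The next had a signal of 459 (rank 1098), 5055 bp from the TSS of Gr93b, and ranked 1272, 865 and 1756. The strongest regions of the replicates with a Gr93 gene as nearest numbered 11, 10 and 13. A window of 2 kb thus leaves out the strongest summits of this cluster, and which gene they serve cannot be read from position.

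None of the 3 Ir co-receptors had an IDR summit within 2 kb. Ir8a had no region in any list and Ir76b had a pooled region at rank 16872. Ir25a, the most widely used co-receptor, had no pooled region but lay near a strong peak, a summit of signal 1531 at 2568 bp upstream that was nearest to the TSS of tank. Of 14 antennal, temperature and humidity Irs, only Ir31a, an olfactory receptor for 2-oxo acids (FBgn0051718, chr2L:10405565-10408197, plus strand), had an IDR summit. It lay 97 bp past the gene end (signal 269.7, rank 2474) and 58 bp upstream of the start that Ip259 and the ribosomal protein gene RpS27A share. The region ranked 1512 in replicate 1 and 3558 in replicate 3, with signals of 115 and 77.2, and replicate 2 had no region there. Ir84a, the receptor for phenylacetic acid, and Ir75b, Ir75c and Ir76a had no region in any list, and Ir92a, a receptor for ammonia, had only a region at rank 23357 of replicate 1.

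The Ir52 and Ir94 taste receptors had 3 of 12 genes met (25%), against 38.5% of all genes. Ir94g and Ir94h, neighbours on the plus strand of 3R, share the strongest of the 18 summits, at 3R:23486961 (signal 389.7, rank 1420). It lay 1461 bp past the end of Ir94g (FBgn0039079, chr3R:23483863-23485500) and 540 bp upstream of Ir94h (FBgn0039080, chr3R:23487501-23489180), which held the nearest TSS. The region ranked 1388, 2076 and 1240 in replicates 1, 2 and 3, with signals of 121, 103 and 155. All 3 replicates placed it well inside their strongest regions, and no other protein-coding gene had a TSS in the window of Ir94h. Ir94e, which is expressed in taste neurons of the labellum, had a weaker summit 733 bp downstream (signal 113, rank 6942; replicate ranks 6117, 7640 and 8149). The 4 Ir52 genes, on 2R, had no IDR summit, and Ir52c had no region in any list.

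The other 3 Irs had their summits downstream. That of Ir68b (FBgn0036250, chr3L:12125487-12127394) had a signal of 384 (rank 1456), ranked 940, 2001 and 1874 in the replicates, and lay 28 bp upstream of the TSS of yps, which encodes a Y-box RNA-binding protein. That of Ir7g (FBgn0029968, chrX:7884660-7886976) had a signal of 319.7 (rank 1927), ranked 3331, 1566 and 1692, and lay 104 bp upstream of the TSS of Acat1, an acetyl-CoA acetyltransferase. Both are thus close to the start of another gene, and at 1913 bp the summit is near the edge of the Ir7g window. Ir67b (FBgn0036083, chr3L:10429689-10431983) had the weakest of the 18, of signal 101 (rank 7746). It ranked 7896, 8341 and 8742, so only replicate 1 had it among its strongest regions.

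**Figure D5:**
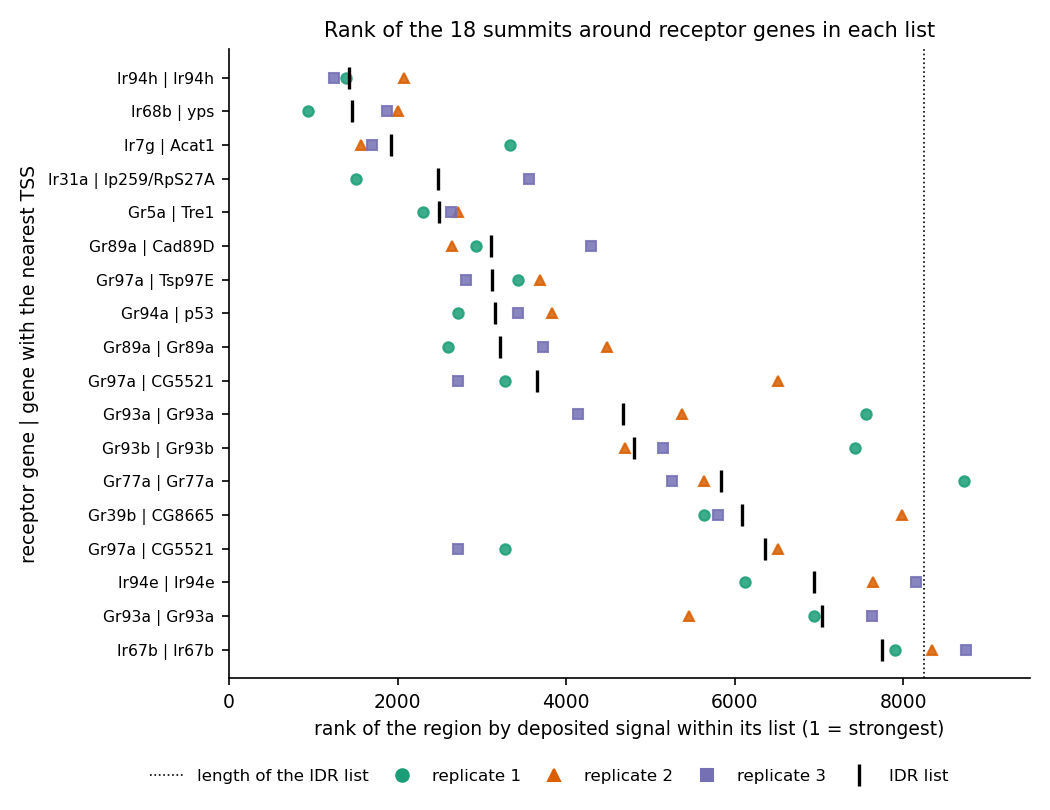
Rank by deposited signal (x axis, 1 is the strongest) of the 18 summits around receptor genes (y axis, receptor gene and the gene with the nearest TSS) in the IDR list (bars) and in each replicate (symbols, the strongest region that covers 50% or more of the peak, which is the same for both upstream peaks of Gr97a), with a dotted line at rank 8248. For Ir31a replicate 2 has no symbol. Gr77a in replicate 1 and Ir67b in replicates 2 and 3 lie right of the line.

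Genes outside the families that held the nearest TSS numbered 10: Acat1, CG5521, CG8665, Cad89D, Ip259, RpS27A, Tre1, Tsp97E, p53 and yps. A receptor gene held the nearest TSS in 8 of its 19 pairs with a summit, and a protein-coding gene at large in 6341 of 10944. Of the 18 summits, 55.6% (interval 30.8% to 78.5%) were nearer to an outside gene. The value depends on the choice of window and list. It was 22.2% of the 9 summits with 1 kb around the body, 69.1% of 55 with 5 kb, 80% of the 10 summits in the 4124 strongest IDR peaks and 38.1% of 84 over all pooled regions. Of the 6 summits within 500 bp of any protein-coding TSS, those of yps, Acat1, Ip259 and RpS27A, p53 and CG8665 made 5, and Gr77a was the other. The 9 summits over 1 kb from any protein-coding TSS included those of the Gr93 genes, Ir94e and Ir67b.

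Receptor genes were met unevenly along the arms. In the IDR list it was 8 of 27 on 3R, 3 of 24 on 3L, 2 of 21 on 2L, 2 of 17 on X and 0 of 31 on 2R, while 35.4% to 40.6% of all genes on these arms were met. On 2R the strongest regions of replicates 1, 2 and 3 met 2, 2 and 1 receptor genes, and pooled regions met 12. On 3R each replicate met 8. The Gr93 and Ir94 clusters are both on 3R and gave 5 of its 8 genes.

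Weaker regions reached more receptor genes, but still fewer than among genes at large. The full pooled list met 51 of 120 (42.5%, interval 33.5% to 51.9%), 26 Grs and 25 Irs, against 61.5% of all genes. The full replicate lists met 64, 65 and 50 (53.3%, 54.2% and 41.7%), against 67.6%, 64.8% and 67.6%. Replicate 3 was lower than the others for receptor genes and not for genes at large, so that the spread was 49.7% ± 6.99 against 66.6% ± 1.61 (SD, n = 3 each). Beside the 15 genes of the IDR list, 36 had only a weaker pooled region, 38 had a region in a replicate but none in the pooled list, 31 of them in a single replicate, and 31 had none in any list (13 Grs and 18 Irs). In the full lists of all 3 replicates 37 were met. No share over all genes was set beside these counts across lists, so whether they differ from genes at large was not tested. Inside gene bodies, pooled regions met 7 receptor genes (5.83%, interval 2.38% to 11.6%), against 28.1%: Gr28a, Gr36b, Gr39a, Gr39b, Ir40a, Ir41a and Ir64a.

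The 10 next in pooled signal were Gr59d (91.6, rank 8457), Ir60a (80.9), Gr47b (80.7), Ir94f (79.5), Gr93d (74.9), Gr59a (72.8), Gr22f (71.4), Ir67c (71.2), Ir93a (69.1) and Gr64a (61.6). Gr59d stood 1340 bp from its region and just under the IDR list in rank, with replicate ranks of 5943, 9797 and 13581. Ir94f, the neighbour of Ir94g, and Ir67c, the neighbour of Ir67b, had theirs 328 and 354 bp upstream of their own TSS. At Ir93a, a co-receptor in temperature and humidity sensing, the region was downstream and 106 bp from the TSS of the ribosomal protein gene RpS30, inside an RpS30 intron. At Gr47b and Gr59a it was 253 and 128 bp from the TSSs of ix, a Mediator subunit gene of sex differentiation, and Art7, an arginine methyltransferase gene. Of these 10, 5 were among the strongest regions of 1 replicate: Gr59d and Gr22f in replicate 1, Gr47b and Gr59a in replicate 2 and Ir60a in replicate 3.

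At the edge of the window, the genes just inside 2 kb were Gr93a at 1969 bp and Ir7g at 1913 bp, and just outside were Ir48b at 2237 bp (signal 104, 2R), Ir48c at 2286 bp (signal 100.1), Gr93c at 2418 bp (signal 159) and Gr93d at 2495 bp. At Gr93a, Ir48b and Gr93d the receptor gene held the nearest TSS, at Ir7g Acat1 did, at Gr93c its neighbour Gr93b and at Ir48c ths, which encodes a fibroblast growth factor.

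Related genes were longer than the receptor genes and were met to differing degrees. They were also longer than all genes (median 2166 bp), and no share was made for genes of their length. Of 13 other ionotropic glutamate receptor genes (median length 6045 bp), 2 were met (15.4%), Nmdar1 and Nmdar2, which encode subunits of the NMDA receptor. The Nmdar1 summit (signal 229) is shared with the overlapping gene Itpr and the Nmdar2 summit (signal 109) lay 34 bp from the TSS of sta. Of 26 genes of taste signalling and accessory proteins (median length 5496.5 bp), the strongest regions of replicates 1, 2 and 3 met 11, 10 and 8. In the IDR list 9 were met (34.6%), against 38.5% of all genes of any length. They were the G protein genes Galphai, Galphao and Galphaq, the phospholipase C genes norpA and Plc21C, Itpr, the IP3 receptor, Amt, an ammonium transporter, and the sodium channel genes ppk23 and ppk29 of pheromone taste. The strongest was a summit in an intron of norpA, 1371 bp from a TSS, with a signal of 1459.5 (rank 68). That of ppk29 (signal 115) was 35 bp from the TSS of eEF5.

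Of 7 motifs searched on both strands within 100 bp of a summit, few matched near receptor genes. ATAATTAAT, a sequence that class IV POU factors prefer, was found at 1 of 18 summits (5.56%), against 1.83% of all IDR summits. It lies at the Gr89a summit at 3R:16497586, starting 37 bp to its right, on the minus strand, so that it reads in reverse complement in the window printed above. The only TAATTA, a homeodomain core found at 18.4% of all IDR summits, is inside that match. ATTAATGAG and the octamer ATGCAAAT were found at none of the 18, against 0.364% and 3.18% of all. TATCGATA, the site of the factor DREF, was found at 1 (5.56% against 1.76%), with 2 copies at the p53 start beside Gr94a, shown here on the plus strand with the copies in capitals.
p53 start (chr3R:23054127-23054155): atggcTATCGATAagcTATCGATAaggat
The copies begin 4 bp left and 7 bp right of the summit. GAGAG was found at 2 summits (11.1% against 20.2%), those of Gr39b and of Gr93a upstream, and AGGTCA at 1, that of Ir67b (5.56% against 4.22%). At 13 of the 18 summits none of the 7 was found. A match is a description and not a site, and with 18 summits each match counts for 5.56%.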

How the data were processed

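Per the labels' protocols, chromatin was sonicated to 200 to 800 bp and precipitated by way of the GFP tag. Aligner, peak caller and IDR threshold: not given in the sources used here. For each region the authors deposited the caller's signal, which has no common scale across lists and serves here to rank and describe regions of 1 list at a time. Lists in dm3 coordinates and the control experiment were not used here. Genes came from Ensembl's BDGP6 annotation and sequence from NCBI's Release 6 genome, both in dm6 coordinates. A gene was met when a summit (region start plus the deposited offset, 1-based) lay in its body or within 2 kb. Only TSSs of protein-coding genes were used, so starts of non-coding RNA genes were not measured. Shares have exact 95% binomial intervals, replicates give mean ± SD, and no test was made, since there was 1 group and a list of genes is no sample. The intervals treat genes as independent, although neighbours such as Ir94g and Ir94h can share a summit.

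The receptor genes, pathway lists and motifs were chosen with earlier results of these data known, so none of them is independent support. Named with values were each receptor gene met in the IDR list, the 10 further ones with the strongest pooled region, members of the role lists, and the genes nearest to the summits. The Gr93 cluster beyond 2 kb, Gr32a, Ir60e and genes without any region were chosen after seeing their values. The alternatives changed the window, the list, the overlap (50% or 1 bp), the replicates and the background. Sequences are printed for 6 summit windows, and 1 more window that the rule for printing takes in is not reported here. The counting was tested on simulated lists. Python 3.11.15, numpy 2.4.6, pandas 2.3.3, scipy 1.17.1 and matplotlib 3.10.9 were used.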

Additional observations from a re-analysis of the deposited data

How the results depend on the processing

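The number of receptor genes met (15, 8 Grs and 7 Irs) depended on the window and the list. It was 0 in gene bodies, for both families, 9 with 1 kb (4 Grs), 41 with 5 kb (20 Grs, 21 Irs), 2 within 1 kb of a TSS (1 Gr, 1 Ir), 9 in the stronger part of the IDR list (4124 peaks; 4 Grs) and 51 over all pooled regions (26 Grs, 25 Irs). It stayed at 12 to 15 with deposited intervals in place of summits and with coverage over 50% or by 1 bp in all 3 replicates. With 1 replicate left out of the 50% rule, so that coverage was asked of the other 2, it was 12 to 13. The IDR list itself was still that of all 3 replicates, and coverage rules can only remove its peaks. The mean over replicates (16) became 0.333, 8.67, 44.7 and 2.33 genes under the same windows, 9 with the 4124 strongest regions and 59.7 with all 30000. The share of summits nearer to another gene (55.6%) became 22.2% with 1 kb, 69.1% with 5 kb, 0% within 1 kb of a TSS, 80% among the stronger peaks and 38.1% over all pooled regions, and gene bodies gave no value. The density (25.3 per Mb) became 0 in bodies, 16.4 with 1 kb, 46.6 with 5 kb, 8.08 around TSSs and 14.1 among the stronger peaks. It was 21.1 with coverage in all 3 replicates at either overlap, and 21.1 to 22.5 with 1 replicate left out of the 50% rule. Over all pooled regions it was 118, and in genes up to 10 kb it was 31.4. Wider windows and longer lists hold more summits by construction, and other causes were not tested. No value for all genes was set beside the counts from the stronger peaks and the coverage rules, nor beside the altered densities. All genes met (38.5%) became 38.3% in genes no longer than Ir41a, 32.6% in genes of 1 to 3 kb and 25.3% in genes without a neighbour. The last 2 and the limit of 10 kb were chosen after seeing the data. Coverage in all replicates, the stronger IDR peaks and the pooled list were not run for the mean over replicates, which uses neither list. No paired analysis was possible because there was 1 group. Depth is unknown, so a missing region may lie below what a list could hold.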

Other observations

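Of 6 Ir pseudogenes, all on 2R and outside the 120 genes, none had an IDR summit and Ir56e had a pooled region. The receptor genes without a region in any list included 3 of the Ir56 genes (Ir56a, Ir56c and Ir56d) and 3 of the Gr59 genes (Gr59c, Gr59e and Gr59f), while Gr59a and Gr59d of the same name group had one of the strongest regions of 1 replicate each.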
